A study of Saccharomyces cerevisiae with 137 samples.

Results

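The early cold response of a budding yeast (Saccharomyces cerevisiae) strain without HAP4 was compared with that of its wild-type parent. The comparison used 8 of the 137 arrays of the study, chosen by title: replicates 1 to 4 of delHAP4 and replicates 1 to 4 of wild type, all after 15 min of cold shock. The study followed wild type and strains lacking a transcription factor from 30 °C into cold at 13 °C and back to 30 °C. Every array carried, in opposite dyes, a cold sample and the sample that its own flask gave before the shift (t0). Both strains were BY4741, and wild type grew in the rich glucose medium YEPD. The delHAP4 strain, from which HAP4 (YKL109W) is deleted, grew in YEPD with 200 µg/mL of the antibiotic G418. After washing, the 4 wild-type slides were coated with PEG and the 4 delHAP4 slides were left uncoated. Drug, slide coating and deletion therefore cannot be told apart between these strains. Wild-type replicate 1 was on a GCAT chip and the other 7 arrays were on Ontario chips. In each strain the cold sample carried Cy5 on 2 arrays and Cy3 on 2. The 8 flasks were separate cultures. The labels state that 2 flasks of a strain were run per day without saying which, so the spread over 4 flasks may understate that over days. The main tests took their spread from 20 arrays at 15 min, which add those of delCIN5, delGLN3 and delZAP1. The added strains were also BY4741, grown with 200 µg/mL G418, and their slides were PEG-coated. Some wild-type arrays at later times were of the BY4739 background.

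Hap4 is the activating subunit of the CCAAT-binding complex, in which Hap2, Hap3 and Hap5 bind DNA. The complex drives transcription of respiratory chain, ATP synthase, tricarboxylic acid cycle and haem genes when yeast respires, and HAP4 itself is repressed while glucose is plentiful. Cells growing on glucose ferment it and take it up through a family of hexose transporters, whose genes are set by the repressors Rgt1, Mth1 and Std1 and by the Mig proteins.

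The deposited value is a score, a log ratio of the cold sample over t0 that was scaled per array, making the array's own scaled median absolute deviation the unit. On the 8 arrays that deviation was 0.999 to 1.001 and the median −0.042 to 0.021. A score is not a fold change. A strain difference in score is a difference between changes from t0, so it cannot tell a different level in the cold from a different level before it. An array measured 5910 to 6111 of 6178 open reading frames, and 5464 frames had a value on all 8 arrays. Spearman correlations over genes were 0.18 to 0.59 between wild-type arrays (median 0.34), 0.24 to 0.56 between delHAP4 arrays (median 0.39) and 0.18 to 0.50 between the strains (median 0.42). Wild-type replicate 1, the GCAT array, stood apart, with a mean correlation of 0.21 with its own strain and 0.20 with delHAP4. Without it, correlations were 0.43 to 0.59 between wild-type arrays (median 0.46) and 0.26 to 0.50 between the strains (median 0.44). Wild-type replicate 2 correlated at 0.43 and 0.46 with wild-type replicates 3 and 4, and at 0.48 to 0.50 with the 4 delHAP4 arrays.

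Both strains responded to 15 min of cold, and part of the response was shared. In delHAP4, 474 of 6031 genes rose over t0 (7.86%) and 225 fell (3.73%), by limma at a Benjamini-Hochberg adjusted p below 0.05. In wild type, 537 of 6172 rose (8.70%) and 241 fell (3.90%). Among the 6029 genes tested in both, 341 changed in both strains, which is 48.8% of the delHAP4 calls and 44.3% of the wild-type calls, and all 341 moved the same way. These counts depended on single arrays. Without delHAP4 replicate 3 or 4, 369 or 400 genes changed in delHAP4, and without wild-type replicate 2, 3 or 4, 427, 372 or 406 changed in wild type. Across genes, which are not independent, the strain means correlated at Pearson r = 0.72 and Spearman rho = 0.65.

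**Figure D1:**
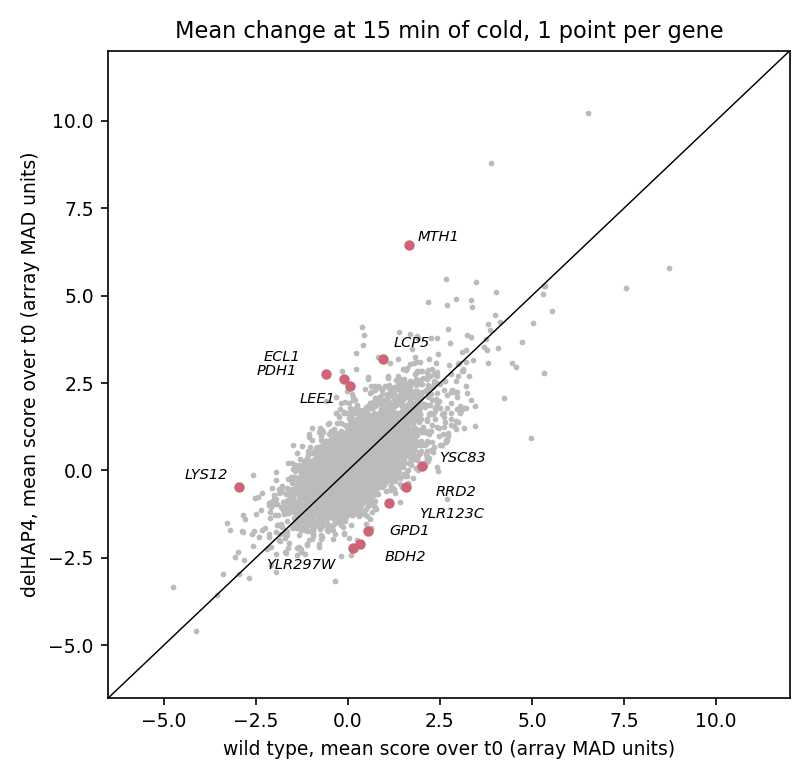
Mean score over t0 of each gene at 15 min of cold in wild type (x axis) and delHAP4 (y axis), in units of the array's median absolute deviation, with 4 arrays per strain and the line of equal change. Most genes lie along the line, and the 12 labelled genes lie off it, MTH1 at 1.66 in wild type and 6.43 in delHAP4. The labelled genes are the 6 of smallest p for the strain difference in each direction among genes whose arrays do not overlap.

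The genes that moved farthest in delHAP4, chosen here after their values were seen, had wild-type means of the same sign. HXT2, a high-affinity glucose transporter, was at 12.33, 9.80, 10.07 and 8.70 in delHAP4 replicates 1 to 4 and at 4.91, 13.42, 3.81 and 3.92 in wild type, and it rose in both strains. Its wild-type replicate 2 was above every delHAP4 array and the other 3 were below all of them. YKR075C, an uncharacterised gene, was at 6.05, 8.39, 11.92 and 8.82 in delHAP4 and at 2.63, 9.48, 2.35 and 1.05 in wild type. MIG2, a repressor of glucose-repressed genes, was at 5.28 ± 1.30 in delHAP4 and 5.35 ± 2.56 in wild type (SD, n = 4), a difference of −0.08 (95% interval −2.49 to 2.33). VID24, which acts in the degradation of gluconeogenic enzymes, was at 5.26 ± 1.66 and 5.32 ± 2.97. NCE103, carbonic anhydrase, rose in both, to 6.42, 5.36, 6.89 and 4.47 in delHAP4 and 6.04, 9.54, 8.55 and 10.71 in wild type. The difference was −2.92 (95% interval −5.02 to −0.83, limma unadjusted p = 0.00828, adjusted p = 0.601), and the groups overlapped through wild-type replicate 1. At the other end, ZEO1, a peripheral membrane protein, fell to −4.59 ± 0.82 in delHAP4 and −4.13 ± 1.32 in wild type. The sorting factors of misfolded proteins CUR1 and BTN2 fell to −3.57 ± 0.96 and −3.32 ± 1.23 in delHAP4. In wild type, CUR1 fell to −3.56 ± 2.04 (n = 4) and BTN2 to −4.75 ± 2.65 (n = 3). The small heat shock protein HSP42 was at −2.95 ± 1.46 and −2.94 ± 1.73.

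Whether the deletion strain answered the cold differently was asked gene by gene. No gene passed: 0 of 6029 (0%) had an adjusted p below 0.05 for delHAP4 minus wild type in limma, and the smallest adjusted p was 0.086. The count rested on which arrays shared the spread. With the 8 arrays alone MTH1 passed (limma adjusted p = 0.00357), as it did on them with replicate number as a block (limma adjusted p = 0.0279). With all times of both strains 4 genes passed in limma, MTH1 (0.0139), HXT11 (0.0266), HXT10 (0.0347) and ECL1 (0.0497). At an unadjusted p below 0.05, 206 genes were higher in delHAP4 (3.42%) and 195 lower (3.23%), together 6.65%. Of the 5464 genes measured on all 8 arrays, the 4 and 4 values did not overlap in 90 that were higher in delHAP4 (1.65%) and 109 that were lower (1.99%), together 3.64%. The 95% interval of a difference reached 1.18 to either side in the median gene, so that differences of about 1 unit could not be resolved for most genes. The 5th and 95th percentiles of all differences were −1.12 and 1.11.

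The 12 genes described next had the smallest p in each direction among genes whose arrays did not overlap. These values chose them, so their differences are a description and none passed the threshold. MTH1, which with Rgt1 represses hexose transporter genes when glucose is low, was at 5.29, 6.28, 7.32 and 6.84 in delHAP4 and at 3.02, 0.86, 1.46 and 1.27 in wild type. It rose in delHAP4 (limma adjusted p = 1.49e-05), and its wild-type mean did not pass (adjusted p = 0.107). The difference was 4.78 (95% interval 2.84 to 6.71, limma adjusted p = 0.086), and even the lowest delHAP4 array stood above every wild-type array. ECL1, named for extending chronological life span, was at 2.54, 1.95, 3.54 and 3.02 in delHAP4 and at −1.43, 0.53 and −0.89 in wild-type replicates 1, 3 and 4, with no value in replicate 2. Its difference was 3.36 (2.03 to 4.69, limma adjusted p = 0.086). All 4 delHAP4 arrays were positive, whereas the wild-type arrays lay on both sides of 0. PDH1, a protein of propionate breakdown, was at 3.26, 1.63, 3.35 and 2.26 in delHAP4 and at −1.01, 0.83, −0.48 and 0.26 in wild type, a difference of 2.72 (1.60 to 3.85). LEE1, a zinc-finger protein of unknown function, was at 2.35, 2.08, 2.45 and 2.77 in delHAP4 and at −0.07, 0.48, −0.60 and 0.37 in wild type, a difference of 2.36 (1.38 to 3.35). Both had the adjusted p of MTH1 and ECL1, and all 4 of these genes passed against t0 in delHAP4 and not in wild type.

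LYS12 and LCP5 completed the genes that were higher in delHAP4. LYS12, homoisocitrate dehydrogenase of lysine synthesis, was at −3.71, −2.41, −2.68 and −3.06 in wild type, where it fell (limma adjusted p = 5.4e-05). In delHAP4 it was at −0.02, −1.41, 0.51 and −0.99, around 0, and the difference was 2.48 (1.39 to 3.58, adjusted p = 0.123). LCP5, a protein of the small-subunit processome that makes 18S ribosomal RNA, was at 2.48, 3.26, 3.81 and 3.20 in delHAP4 and at 0.63, 1.43, 0.75 and 1.06 in wild type. It was positive on all 8 arrays, and the difference was 2.22 (1.2 to 3.24, limma adjusted p = 0.148).

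**Figure D2:**
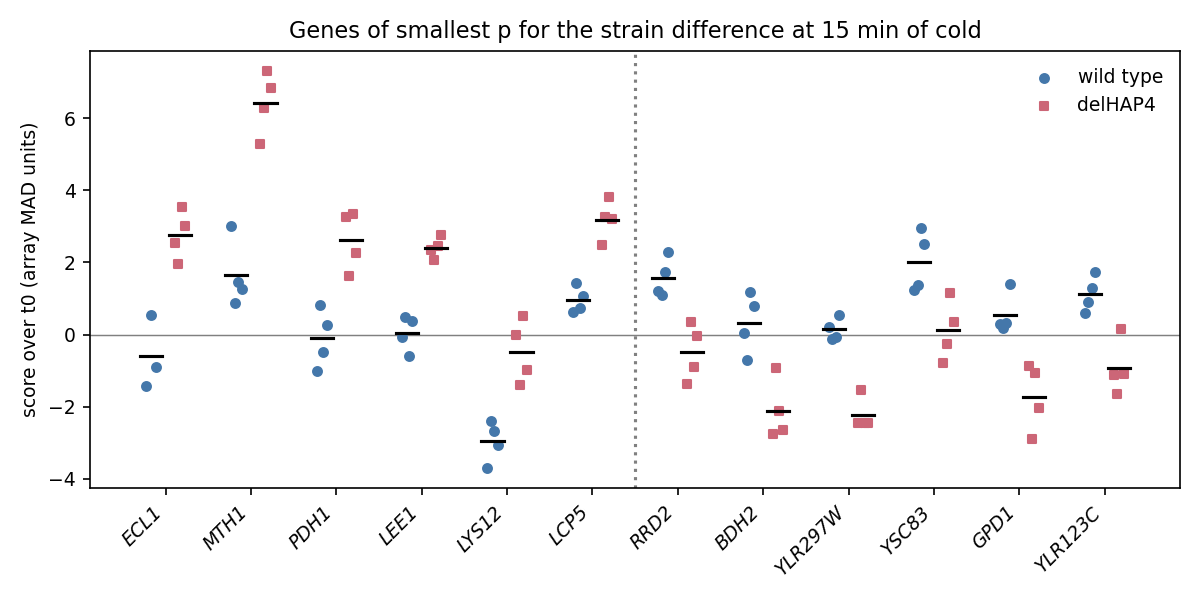
Score over t0 of 12 genes at 15 min of cold, in units of the array's median absolute deviation. The genes are the 6 of smallest p for the strain difference in each direction among genes whose arrays do not overlap. Points are single arrays (circles wild type, squares delHAP4) and bars are means. The dotted line parts genes higher in delHAP4 from genes lower in it. The strains do not overlap for any of them, as the choice of genes requires.

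On the lower side, RRD2, an activator of protein phosphatase 2A, was at −1.36, 0.35, −0.91 and −0.03 in delHAP4 and at 1.2, 1.11, 1.75 and 2.28 in wild type. It rose in wild type (limma adjusted p = 0.00235), and the difference was −2.07 (−3.0 to −1.14, adjusted p = 0.125). BDH2, a putative alcohol dehydrogenase similar to the butanediol dehydrogenase Bdh1, was at −2.76, −0.93, −2.11 and −2.64 in delHAP4 and at 0.04, −0.72, 1.19 and 0.78 in wild type. It fell in delHAP4 and straddled 0 in wild type, a difference of −2.44 (−3.56 to −1.31). GPD1, glycerol-3-phosphate dehydrogenase of glycerol synthesis, was at −0.88, −2.90, −1.07 and −2.03 in delHAP4 and at 0.30, 0.20, 0.32 and 1.40 in wild type. It fell in delHAP4 (limma adjusted p = 0.00718) and was positive on all 4 wild-type arrays, and the difference was −2.27 (−3.46 to −1.09, adjusted p = 0.267). YSC83, a mitochondrial protein of unknown function, was at −0.79, −0.25, 1.15 and 0.35 in delHAP4 and at 1.24, 1.37, 2.94 and 2.52 in wild type, where it rose. The uncharacterised YLR297W was at −2.46, −1.53, −2.45 and −2.46 in delHAP4, where it fell, and between −0.12 and 0.54 in wild type. YLR123C, which is not in the gene table used so that its overlap with other genes was not examined, was at −1.12, −1.64, 0.15 and −1.10 in delHAP4 and at 0.61, 0.89, 1.30 and 1.73 in wild type. For these 3 the differences were −1.90, −2.37 and −2.06, with limma adjusted p of 0.220, 0.180 and 0.394.

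Some of these differences were not of the same size in the 2 dye orientations. The orientations also hold different flasks, and an effect of dye on single genes was not tested. MTH1 differed by 4.62 on arrays with the cold sample in Cy5 and by 4.94 on those with Cy3, and LCP5 by 2.20 and 2.24. RRD2 differed by −0.99 in Cy5 and −3.15 in Cy3, and BDH2 by −1.45 and −3.43. The sign was the same in both orientations for all 12 genes, as their choice for arrays without overlap requires. Each orientation held 2 arrays per strain. For a single gene with 8 values, an exact permutation test over the arrays gave a two-sided p of 0.0286 wherever the strains did not overlap, the smallest that 4 against 4 arrays can give (2 of 70 splits).

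Many glucose uptake and sensing genes rose in both strains. Of 19 hexose transporters and glucose regulators, 14 rose over t0 in delHAP4 and 11 in wild type, against 7.86% and 8.70% of all genes, and none fell. The median score was 3.36 in delHAP4 and 2.19 in wild type, against −0.04 and −0.01 over all genes. None of the 19 passed for the strain difference, since no gene tested did. The median difference was 1.07, against −0.03 over all genes tested, and 12 of 19 differences were above 0, against 48.2% of all genes. At an unadjusted p below 0.05, 3 of 19 were higher in delHAP4 (MTH1, HXT10 and SNF3), against 3.42% of all genes, and 0 lower. The arrays of the strains did not overlap in 1 of 19 that was higher in delHAP4 (MTH1) and in 1 that was lower. Among all genes measured on the 8 arrays the shares were 1.65% and 1.99%. Wild-type replicate 2 was the highest wild-type array for 12 of the 19 genes. Without it, the median difference was 1.59 with 7 of 19 higher at an unadjusted p below 0.05, and 5 rose in wild type. Without wild-type replicate 1, the median difference was 0.53 with 3 higher, and 12 rose in wild type.

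Among the single genes of that list, named here after their values were seen, HXT10, a minor hexose transporter, was at 4.38, 1.76, 4.17 and 3.13 in delHAP4 and at −0.76, 2.28, −0.21 and −0.38 in wild type. The groups overlapped only through replicates numbered 2, and the difference was 3.13 (1.09 to 5.17, limma unadjusted p = 0.0043, adjusted p = 0.601). HXT11, a transporter outside that list, was at 3.41, 4.26, 4.84 and 3.89 in delHAP4 and at −0.08, 2.26, −0.18 and −0.51 in wild type, without overlap. It rose in delHAP4, and its difference was 3.73 (1.89 to 5.56, limma adjusted p = 0.180); its sequence is nearly that of HXT9, and their signals may not be separate. SNF3, the plasma membrane sensor of low glucose, was at 0.64, 2.69, 1.62 and 1.58 in delHAP4 and at 1.25, 0.43, −0.69 and −0.23 in wild type, a difference of 1.44 (0.06 to 2.82). The transporters HXT4 (5.10 and 4.03), HXT1 (3.49 and 4.07) and HXT3 (5.39 and 3.49), with delHAP4 first, rose in both strains. Their differences had intervals that held 0: −1.22 to 3.35 for HXT4, −2.31 to 1.15 for HXT1 and −0.67 to 4.47 for HXT3. HXT6 was at 4.73 in delHAP4 and 2.70 in wild type and HXT7 at 4.18 and 3.82; these genes are nearly identical in sequence, and their signals may not be separate. MIG1, the main glucose repressor, rose to 2.38 and 2.19. MIG3, a related repressor, split delHAP4 into 2.24 and 2.98 in replicates 1 and 2 and −1.61 and −1.51 in replicates 3 and 4, while wild type lay between 1.83 and 2.76. The glucose sensor RGT2 was at −0.53 and −0.51, and RGT1, the repressor that Mth1 works with, at −0.58 and 0.33, none past the test against t0. STD1, the paralog of MTH1, was at 0.77, 1.70, 1.42 and 2.04 in delHAP4 and at 1.64, 3.16, 1.94 and 1.23 in wild type. STD1 rose in both strains, and its difference of −0.51 (−1.67 to 0.65) had the opposite sign to that of MTH1.

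**Figure D3:**
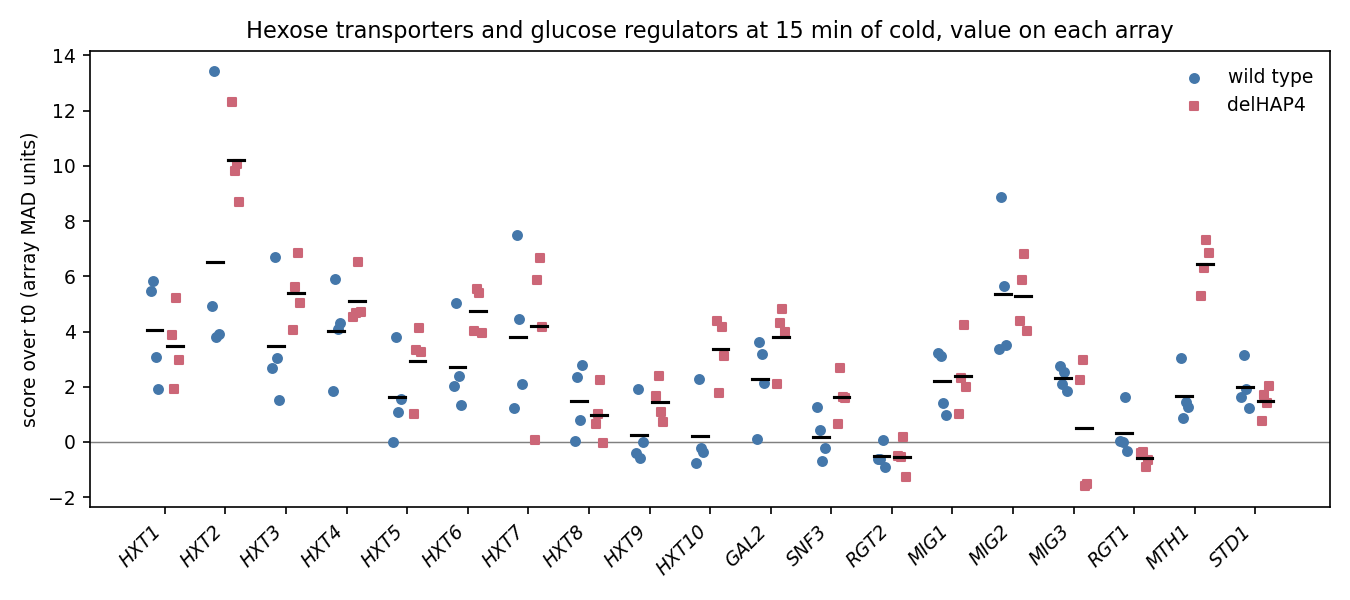
Score over t0 of 19 hexose transporter and glucose regulator genes at 15 min of cold, in units of the array's median absolute deviation; points are single arrays (circles wild type, squares delHAP4) and bars are means. The strains are apart for MTH1, 0.86 to 3.02 in wild type and 5.29 to 7.32 in delHAP4, and for 1 gene that is lower in delHAP4. Wild-type replicate 2 gives the high wild-type points of HXT2 (13.42), HXT7 (7.49) and MIG2 (8.87).

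Genes that the Hap complex is known to drive gave no call between the strains, where 0 of all 6029 genes tested gave one (0%). Not a single member of the lists of the respiratory chain, ATP synthase, tricarboxylic acid cycle and haem synthesis passed for the strain difference. Against t0, the highest counts of a list were in wild type. There 4 of 11 tricarboxylic acid cycle genes fell, against 3.90% of all genes. Of 12 genes of the cytochrome bc1 complex and cytochrome c, 2 rose, against 8.70%. No ATP synthase gene passed against t0 in either strain. Median differences were 0.13 over 6 genes of succinate dehydrogenase, −0.28 over 12 of the cytochrome bc1 complex and cytochrome c, 0.15 over 9 of cytochrome c oxidase, −0.20 over 18 of its assembly, −0.002 over 12 of ATP synthase and 0.07 over 8 of haem synthesis. Without wild-type replicate 1 these medians were 0.04, −0.19, 0.30, −0.07, −0.06 and −0.06. None of the members of these 6 lists had an unadjusted p below 0.05 with all arrays, against 6.65% of all genes. With single arrays left out, 0 to 4 members had one, 4 without wild-type replicate 1 (1 higher in cytochrome c oxidase, 2 lower in its assembly and 1 lower in haem synthesis) and 4 without replicate 2. COX7, a subunit of cytochrome c oxidase, was at −0.40, −0.81, −0.93 and −0.47 in delHAP4 and at −0.44, −2.02, −3.29 and −1.73 in wild type, where it fell, a difference of 1.22 (−0.01 to 2.45). COX5B, the hypoxic isoform of subunit 5, was at −1.46, −1.10 and −1.37 in delHAP4 replicates 1 to 3 and at 1.66, −1.22, −0.86 and −0.20 in wild type, a difference of −1.16 (−2.36 to 0.05). In both genes wild-type replicate 1 was the highest wild-type array, and without it COX7 differed by 1.70 and COX5B by −0.55.

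Other members depended on single arrays or differed between the dye orientations, which hold different flasks. QCR6, a subunit of the bc1 complex, was at 3.13 in wild-type replicate 1 and between −2.26 and −0.27 in the other wild-type arrays, against −1.37 to −0.72 in delHAP4. Its difference of −1.01 became 0.06 without that array. SCO1, which delivers copper to cytochrome oxidase, was at −2.77, 0.13, −2.36 and −1.45 in delHAP4 and at −0.99, −2.38, 1.09 and 1.75 in wild type. It differed by 1.02 with the cold sample in Cy5 and by −3.98 in Cy3, opposite in sign. COX15, a haem A synthase component, differed by 0.98 (−0.08 to 2.04), or 0.44 without wild-type replicate 1. ATP20, a subunit of ATP synthase, differed by 0.86 (−0.24 to 1.97), or 0.30 without wild-type replicate 3. QCR9 differed by −0.70 (−1.71 to 0.30), STF2, a stabiliser of inhibited ATP synthase, by −1.03 (−2.65 to 0.59; −0.20 without wild-type replicate 4), and the succinate dehydrogenase genes SDH1 and SDH5 by 0.35 and −0.45.

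Tricarboxylic acid cycle genes had the lower median in wild type, without a gene that passed for the difference. Of 11 genes, 4 fell in wild type (IDH1, IDH2, FUM1 and MDH1) and 2 in delHAP4 (IDH1 and LPD1), against 3.90% and 3.73% of all genes. The median scores were −1.19 and −0.60. The median difference was 0.57, and 3 of 11 were higher in delHAP4 at an unadjusted p below 0.05 (IDH1, IDH2 and CIT1), against 3.42% of all genes. Without wild-type replicate 1 the median was 0.60 with 2 of 11 higher, and without replicate 2 it was 0.65 with 2 of 11 higher and 2 fallen in wild type. Over all single arrays left out, the median was 0.32 (wild-type replicate 4) to 0.68 (delHAP4 replicate 4), and it was 0.35 without delHAP4 replicate 2. IDH1, a subunit of mitochondrial isocitrate dehydrogenase, was at −0.92, −1.79, −0.76 and −2.59 in delHAP4 and at −1.98, −3.75, −3.60 and −3.79 in wild type. The difference was 1.76 (0.64 to 2.89, limma adjusted p = 0.601), and the groups overlapped. IDH2, the other subunit, was at −1.72, −2.32, 0.63 and −2.12 against −2.62, −3.39, −2.78 and −2.40, with no overlap. CIT1, mitochondrial citrate synthase, was at 0.55, 0.14, −0.68 and 0.21 in delHAP4 and at −1.74, −0.76, −1.48 and −0.93 in wild type, a difference of 1.29 (0.05 to 2.52). Of 7 alternative and lactate dehydrogenases, all differences were above 0, with a median of 0.17. The median was 0.45 without wild-type replicate 1, and 4 of 7 were above 0 with a median of 0.04 without replicate 2. Without wild-type replicate 3 the median was −0.02, with 3 of 7 above 0. NDE1, the external NADH dehydrogenase, differed by 1.70 (−0.13 to 3.54), and DLD3, a lactate dehydrogenase, by 1.43 (0.16 to 2.70, limma unadjusted p = 0.0292). In haem synthesis, HEM13 was at −0.19, 0.21, 0.04 and 0.01 in delHAP4 and at 0.23, 1.01, 1.65 and 1.02 in wild type, a difference of −0.96 (−2.04 to 0.12) with no overlap. HEM12 differed by 1.06 (−0.04 to 2.17).

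**Figure D4:**
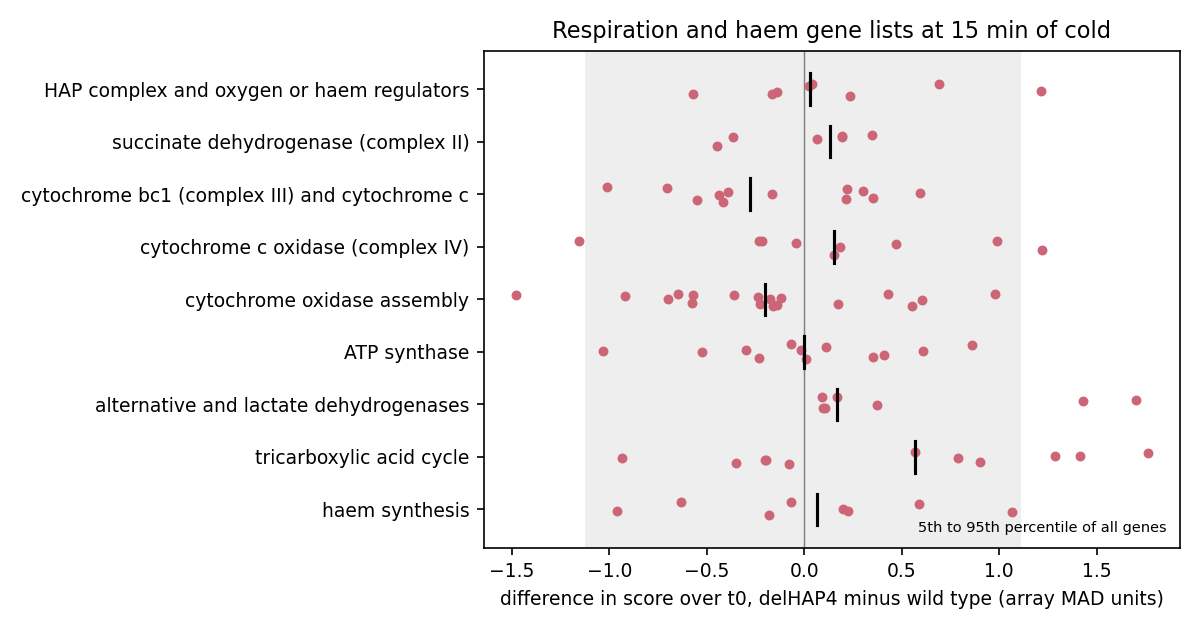
Difference in score over t0 at 15 min of cold, delHAP4 minus wild type, in units of the array's median absolute deviation, for each gene (points) of 9 lists of respiration, haem and their regulators, with the median of each list (black bars). The grey band spans the 5th to 95th percentile of all genes (−1.12 to 1.11), and most points lie within it.

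None of the Hap genes themselves passed a test. HAP4 was at 0.41, −0.92, 0.38 and −0.82 in delHAP4 and at 0.51, 1.92, −0.89 and −2.65 in wild type. Since each array compares 2 samples of the same strain, the HAP4 value of delHAP4 is a ratio of signals from cells without that gene, and it cannot check the deletion. HAP2 differed by 0.69 (−0.41 to 1.80), HAP3 by 0.24 (−0.63 to 1.10), HAP5 by −0.57 (−1.70 to 0.56) and the haem-responsive factor HAP1 by −0.16 (−1.16 to 0.83). In delHAP4, HAP5 was at −1.79 and −2.08 on the arrays with the cold sample in Cy3 and at 0.96 and −0.69 on those with Cy5. Neither HAP1, HAP2, HAP3 nor HAP5 passed against t0 in either strain. Among the genes that BY4741 lacks, LEU2 was at −0.09, 0.13, 3.75 and 3.36 in delHAP4 (limma adjusted p = 0.0495 against t0) and between −0.50 and 0.59 in wild type. URA3 and MET17 differed by −0.35 and 0.38, and HIS3 had a single value in delHAP4.

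Genes of ribosome assembly rose in both strains. No member of any of the 46 lists passed for the difference, since no gene tested did. Of the ribosome biogenesis genes, 79 of 133 rose in delHAP4 and 68 of 134 in wild type (56 without wild-type replicate 1, 29 without replicate 2), with medians of 1.70 and 1.41, against 7.86% and 8.70% of all genes that rose. At an unadjusted p below 0.05, 10 of 133 were higher in delHAP4 and 1 lower, against 3.42% and 3.23% of all genes, and the median difference was 0.20. Without wild-type replicate 1 it was 0.11. Without replicate 2 it was 0.39, with counts of 17 and 1. With single delHAP4 arrays left out, the median difference was 0.07 (replicate 3) to 0.59 (replicate 2). DBP6, a helicase of the large subunit, was at 1.40, 1.23, 2.36 and 2.88 in delHAP4 and at 0.39, −0.38 and −0.25 in the 3 wild-type arrays that measured it. RRP12, which exports pre-ribosomes, was the gene below, at 0.26 ± 0.86 in delHAP4 and 2.17 ± 1.08 in wild type (SD, n = 4). RNA polymerase I and III subunits had a median difference of 0.63, with 18 of 24 above 0. At an unadjusted p below 0.05, 5 were higher (3.42% of all genes) and 0 lower (3.23%), and 1 of 24 was higher without wild-type replicate 1. RPC82 was at 1.89, 1.89, 1.95 and 1.95 in delHAP4 and at −0.04, 1.21, 0.07 and 1.22 in wild type.

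Mitochondrial ribosomal protein genes had a median difference below 0. Of 73 in wild type 16 rose over t0 (8 without wild-type replicate 2), against 8.70% of all genes. Of 72 in delHAP4 4 rose and 1 fell, against 7.86% and 3.73%. The median difference was −0.27 (−0.43 without wild-type replicate 1). At an unadjusted p below 0.05, 0 were higher and 7 of 72 lower, against 3.42% and 3.23% of all genes. MRPL16 was at 1.11, 1.31, 1.69 and 0.71 in delHAP4 and at 2.77, 3.06, 3.68 and 3.08 in wild type, apart but positive on all 8 arrays. MRPL38 was at 0.97, 0.07, 0.33 and −0.02 against 2.17, 1.26, 2.46 and 1.57, also without overlap.

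Stress lists had median differences on both sides of 0. Of the heat shock and chaperone genes, 7 of 29 fell in delHAP4 and 11 of 30 in wild type (5 without replicate 2), against 3.73% and 3.90% of all genes. Their median difference was 0.33, or 0.50 without wild-type replicate 1. Over all single arrays left out, it was 0.05 (delHAP4 replicate 1) to 0.64 (delHAP4 replicate 2). HSP82, a cytosolic Hsp90, was at 1.00, −1.30, 0.28 and −0.45 in delHAP4 and at −0.13, −2.39, −3.31 and −4.47 in wild type, a difference of 2.46 (0.54 to 4.37, limma unadjusted p = 0.0143). Of the general stress genes that Msn2 and Msn4 are known to drive, 8 of 35 fell in delHAP4 and 1 of 34 in wild type, against the same 3.73% and 3.90%. Their median difference was −0.48, with 7 of 34 above 0. Oxidative stress genes had a median difference of −0.37 with 4 of 25 above 0, or −0.17 with 9 of 25 without wild-type replicate 1. The osmotic response genes, which include GPD1, had −0.45 with 4 of 14.

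Some metabolic genes, named after their values were seen, also differed by value without passing. CIT2, the peroxisomal citrate synthase, was at 1.86, 1.92, 2.51 and 1.64 in delHAP4 and at −0.83, −2.15, −0.20 and 0.77 in wild type, apart by 2.59 (1.12 to 4.06, limma adjusted p = 0.403). PCK1, which starts gluconeogenesis, was at 0.73, 1.83, 0.60 and 0.48 against −0.38, −0.87, −0.49 and −0.09, also without overlap. In the list of gluconeogenesis and the glyoxylate cycle, 14 of 16 differences were above 0 and the median was 0.49, or 0.31 over 15 genes without wild-type replicate 1. SUR1, a subunit of the enzyme that mannosylates inositol phosphorylceramide, was at 4.37, 2.48, 2.07 and 2.73 in delHAP4, where it rose, and at −1.16, 2.21, −0.11 and −0.04 in wild type. Its difference was 2.69 (1.37 to 4.01, limma adjusted p = 0.180), and the groups overlapped through wild-type replicate 2. CPA1, carbamoyl phosphate synthetase of arginine synthesis, rose in both strains, to 3.66, −0.01, 2.40 and 2.30 in delHAP4 and 3.54, 4.64, 4.64 and 4.13 in wild type. Of the 11 arginine synthesis genes 2 had differences above 0 (0 without wild-type replicate 2), with a median of −0.54. Of 19 purine synthesis genes 14 had differences above 0, with a median of 0.73 (0.45 without wild-type replicate 2). Over all single arrays left out, that median was 0.26 (delHAP4 replicate 3) to 0.89 (wild-type replicate 1). ADE17 was at 2.71, 3.39, 3.39 and −0.39 in delHAP4 and between −0.72 and 0.92 in wild type. PAU genes, a subtelomeric family whose near-identical copies the array may not separate, had 3 of 23 differences above 0, with a median of −0.42. Wild-type replicate 1 was the highest wild-type array for 15 of the 23, and without it 8 of 23 were above 0 with a median of −0.13.

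The other deletion strains at 15 min were grown in the same drug as delHAP4 and their slides were PEG-coated like those of wild type. Against the mean of delCIN5, delGLN3 and delZAP1, delHAP4 differed in 0 of 5926 genes (0%, limma at an adjusted p below 0.05), and 228 had an unadjusted p below 0.05. This comparison shares the delHAP4 arrays with the one above. MTH1 was at 4.60 in delCIN5, 2.26 in delGLN3 and 5.26 in delZAP1, all between the 1.66 of wild type and the 6.43 of delHAP4. PDH1 was at 0.19, 0.69 and 0.27, near the −0.10 of wild type rather than the 2.62 of delHAP4, and delHAP4 differed from the 3 strains by 2.24 (limma adjusted p = 0.333). ECL1 was at −0.07, 1.25 and 1.18, and LEE1 at 0.86, 0.22 and 1.72. YLR297W was at −1.30, −2.43 and −1.72, on the side of delHAP4 (−2.23) and away from wild type (0.15). RRD2 was at 0.42, −0.10 and −0.53 and YSC83 at 1.09, −0.13 and −0.31, in each case below the wild-type means of 1.58 and 2.02. LYS12 was at −1.35, −1.84 and −1.59, between wild type at −2.96 and delHAP4 at −0.48. CIT1 was at −0.89, −0.75 and −1.04, closer to the −1.23 of wild type than to the 0.06 of delHAP4. IDH1 went the other way, at −1.92, −1.83 and −2.10, closer to the −1.51 of delHAP4 than to the −3.28 of wild type. The part of drug and coating in these differences was not tested.

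Later cold times gave further values, mostly from the same flasks, which share their t0 RNA with those at 15 min and are not independent of them. There were 4 delHAP4 arrays at each time, 5 wild-type arrays at 30 min and 4 at 60 min. One wild-type array at each later time was of the BY4739 background (replicate 0), and replicate 4 is not among those at 60 min. After 30 min, 20 of 5990 genes passed for delHAP4 minus wild type (0.334%), and after 60 min 4 of 6052 (0.0661%), in limma with flask as a random block. The differences of ECL1, MTH1, PDH1, LEE1 and BDH2 at 30 min were 3.25, 3.40, 2.66, 1.95 and −2.42 (limma adjusted p = 0.00729, 0.0275, 0.0175, 0.0357 and 0.0275). MTH1 differed by 0.81 at 60 min (adjusted p = 0.883), against 4.78 at 15 min, and ECL1 by 2.06 (adjusted p = 0.266). YSC83 differed by −2.83 at 30 min and −1.41 at 60 min, neither passing. IDH1 differed by 1.84 at 30 min and 2.31 at 60 min, neither passing. Without the BY4739 flask, a setting added after seeing the data, 24 genes passed at 30 min and 11 at 60 min. LEE1 then differed by 1.73 at 30 min and no longer passed (limma adjusted p = 0.0588). YLR297W, LYS12 and IDH1 differed by −2.45, 1.92 and 2.66 at 30 min and passed (limma adjusted p = 0.00442, 0.0356 and 0.0284). With that flask, YLR297W and LYS12 had differed by −1.84 and 1.43 without passing (limma adjusted p = 0.171 and 0.301). MTH1 at 60 min differed by 1.54 without it (limma adjusted p = 0.655).

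**Figure D5:**
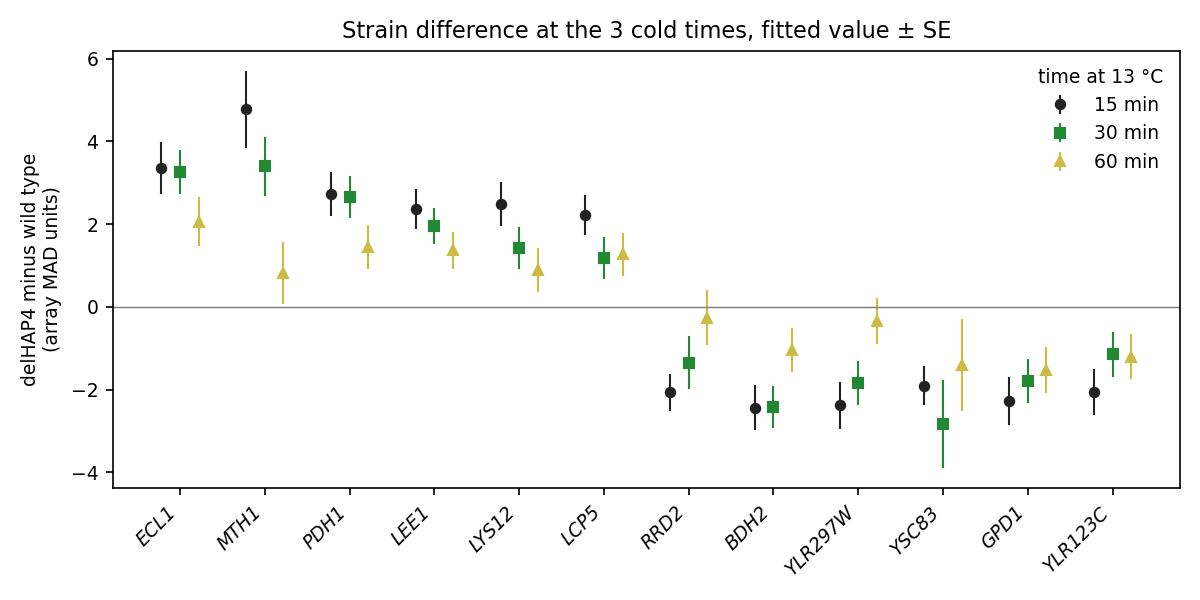
Fitted difference in score over t0, delHAP4 minus wild type, with its SE, for the 12 genes at 15, 30 and 60 min at 13 °C, in units of the array's median absolute deviation; the 15 min values come from the fit of 15 min arrays and the later ones from a fit of the cold times of both strains. MTH1 goes from 4.78 through 3.40 to 0.81, and ECL1 from 3.36 through 3.25 to 2.06.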

How the data were processed

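Scores were taken from the deposited table of the whole series, 1 value per open reading frame and array (unmapped columns 0). Per the submitters' processing notes the authors made these scores with limma. Its version, the background correction, the normalization and the spot filters are not given in the sources used here. The direction, cold over t0, is taken from the titles alone. Intensities and probe sequences were not analysed here, so cross-hybridization was not examined; the number of arrays limits the precision. Of 6178 frames, 5674 matched the gene table by locus tag, and 2.74% of values on the 8 arrays were missing.

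One mean per strain was fitted with limma 3.58.1 (R 4.3.3) to the 20 arrays at 15 min of wild type, delCIN5, delGLN3, delHAP4 and delZAP1, with moderated variances, at least 2 values per group and Benjamini-Hochberg adjustment over all genes tested. The other strains add only to the spread. The arrays of delHMO1 were left out since an earlier analysis found them in opposed directions. Later times used the cold arrays of both strains with flask as a random block (correlation 0.42). Genes named were the 6 of smallest p per direction among those without overlap and with at least 3 values per strain, up to 3 members of each list past the threshold, the 2 of smallest adjusted p in each respiration list, and HAP1 to HAP5. Other genes were named after their values were seen. Members and lists were chosen with earlier results of these data known.

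Deviations of same-numbered flasks correlated at 0.10, −0.06, 0.11 and 0.10, and those of different-numbered flasks at −0.20 to 0.08. All but the value of replicates numbered 2 lay above that range. The main fit did not pair flasks by replicate number, and whether flasks were paired was not settled. Alternatives were the 8 arrays alone, all 24 arrays, all times, a replicate block, a dye term, 2 scalings, complete genes, Ontario chips, robust moderation, array weights, an adjusted p below 0.01 and each array left out. The fit of cold times, its repeat without the BY4739 flask and the list counts with arrays left out were added after seeing the data. The fit was tested on simulated data. Figures were drawn with matplotlib 3.10.9 and pandas 2.3.3 in Python 3.11.15.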

Additional observations from a re-analysis of the deposited data

Results flagged for a closer look

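Of 64 groups of 4 values among the 33 genes named by rule, 7 held an array far from the other 3 by Dixon's test at 95%. Chance alone gives about 1 in 20 groups. In 3 of the 7 the array was wild-type replicate 1, on the GCAT chip: COX15 at −2.05 with the others at −0.01 to 0.37, IDH1 at −1.98 with the others at −3.79 to −3.60, and HAP3 at 0.795 with the others at −0.27 to −0.13. Wild-type replicate 4 was high in GPD1, at 1.40 with the others at 0.20 to 0.32, and wild-type replicate 3 was low in ATP20, at −2.12 with the others at −0.04 to 0.26. In delHAP4, replicate 2 was high in YLR297W, at −1.53 with the others at −2.46 to −2.45, and replicate 1 was high in STF2, at 0.744 with the others at −1.36 to −1.07.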

How the results depend on the processing

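The count of genes past the threshold for delHAP4 minus wild type was 0 with all 24 arrays at 15 min, arrays centred, genes measured on all 8 arrays, Ontario chips, robust moderation and an adjusted p below 0.01. It was 1 with the 8 arrays alone, with quantile normalization and with array weights (MTH1 each time), 3 with a dye term (MTH1, ECL1 and PDH1), 4 with all times of both strains (MTH1, ECL1, HXT10 and HXT11), and 9 with the cold times, an alternative chosen after seeing the data. With the replicate number as a block the count was 1, MTH1. Leaving out single arrays gave 0 to 6, the 6 without wild-type replicate 2. Counts at an unadjusted p below 0.05 were 308 to 567. MTH1 passed in 7 of 21 alternatives, with differences of 4.48 to 5.91 and adjusted p of 0.00119 to 0.437, ECL1 in 4 of 20, PDH1 in 3 of 21 and LEE1 in 1 of 21. These alternatives are not all distinct. Ontario chips give the same fit as leaving out wild-type replicate 1, and an adjusted p below 0.01 is the main fit at a stricter threshold. Against t0, wild type gave 424 calls from its own arrays alone and 372 to 790 with an array left out, and delHAP4 369 to 513 with an array left out. Against the other deletion strains the count stayed at 0 with all 24 arrays. Of the genes named by rule, 2 reversed. QCR6 was 0.0636 with Ontario chips and −1.73 to 0.0636 with single arrays left out. HAP4 was −0.0829 with the cold times and −0.75 to 0.77 with single arrays left out. The cause was not tested where the array left out does not itself show it.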
